A study of Xiphophorus maculatus with 32 samples.

Results

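The transcripts described here are 100 of *X. maculatus* skin, out of 14297 kept from a table of 20218, that had the highest level after long compared with short wavelengths of light. They were chosen by their CPM (the count of a transcript scaled to a common library total), and the choice kept transcripts with a mean of at least 2 CPM over the distinct libraries. With log2(CPM + 1), the mean of the 4 fish exposed to 500–550 and 550–600 nm, less the mean of the 4 fish exposed to 350–400 and 400–450 nm, ranked them, and the first 100 were taken. This difference ran from 1.96 at rank 1 to 0.78 at rank 100 (log2 scale, median 0.94), against a median of 0.03 over all transcripts kept. The transcript at rank 100 had a difference of 0.776 and the next transcript, just outside, 0.772. The 8 libraries of these 4 wavebands thus ranked the members, and what they show is given as a description without a test. The other 20 libraries entered only through the mean of at least 2 CPM. Below, they are called libraries not used in the choice.

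The animals were mature male *X. maculatus* of the inbred strain Jp 163 B, 10 to 11 months old, and each exposure is represented by 2 fish of 1 inbred line. Intact fish received 1 waveband of 50 nm from a tunable xenon source (300–350 nm at 7.3 kJ/m2, 350–400 nm at 18.6, 400–450 nm at 21.6, 450–500 nm at 21.2, 500–550 nm at 17.4 or 550–600 nm at 13.8 kJ/m2), 1 waveband of 10 nm between 500 and 550 nm, or 4100 K "cool white" fluorescent light (FL) at 35 kJ/m2, and the skin was taken for RNA-Seq. Exposed fish were held in a cuvette for the exposure and then kept in the dark for hours before dissection. Unexposed fish were kept in the dark, with 2 libraries for the 50 nm experiment and 2 for the 10 nm experiment. The paper describes its sequenced controls as untreated and unhandled fish from the dark cycle, and elsewhere as fish maintained like the exposed ones. If they were unhandled, light, handling and sampling time cannot be told apart in comparisons with unexposed fish. In the paper the doses of the 10 nm wavebands fell slightly with increasing wavelength. Waveband and dose differed together, so an effect of wavelength and an effect of dose cannot be told apart.

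Skin is a light-exposed organ, and fishes carry light-sensing proteins, among them opsins and cryptochromes, outside the eye as well. Light reaching such tissue can reset the circadian clock, induce repair of damaged DNA and alter metabolism, and the energy of a photon falls as its wavelength grows. The question addressed by the wavebands was whether different parts of the spectrum modulate different genes in the skin of the intact animal. KLHL38, the named member with the highest rank, belongs to the kelch-like family, proteins with a BTB domain and kelch repeats of which many serve as substrate adaptors of cullin ubiquitin ligases.

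The 28 distinct libraries held 12835091 to 41221463 counts (median 16067180). The 4 columns labelled as FL controls held the same values as the 2 unexposed libraries of the 50 nm experiment and were counted once. A gene name was given for 88 rows of the table, of which 64 passed the level of 2 CPM and 3 were members: KLHL38 (ENSXMAT00000008690) at rank 8, PKFB1 (ENSXMAT00000001311) at rank 71 and, under a clone name, ENSXMAT00000020266 at rank 53. Names came from the deposited rows and from the probe list of the study, and PKFB1 is spelled as there. The other 97 members are known only by transcript identifier, so no role is given for them, and members are named by rank. Of 82 marker genes listed for cell types, cell cycle, circadian clock and stress, 20 had a named row and 0 were members. None of the 9 keratinocyte or the 8 pigment cell markers had a named row, so the skin label was not checked against them.

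In the 4 wavebands that chose them, the members did not share 1 pattern. Less the unexposed fish, the mean of the 4 long-waveband fish was at least 1 higher on the log2 scale in 55 members, the mean of the 4 short-waveband fish was at least 1 lower in 15, and neither held in 30. The long-waveband mean lay above the unexposed mean in 81 members, and the short-waveband mean did so in 58. All 4 long-waveband fish lay above all 4 short-waveband fish in only 16 of the 100 members, beside 5.72% of all transcripts kept. A level at least 1 higher (log2) after 500–550 than after 550–600 nm was found in 32 members and the converse in 12.

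The median of the members, as log2(CPM + 1) less the mean of the unexposed fish of the same experiment, differed between the 2 fish of an exposure. After 500–550 nm it was 0.28 in fish 1 and 1.64 in fish 2, and after 550–600 nm it was 0.54 and 1.25. After 350–400 nm it was −0.12 and 0.34, and after 400–450 nm it was −0.04 and 0.13. Fish 1 of 500–550 nm was thus lower than fish 2 of 350–400 nm, a short waveband. In the wavebands that the choice did not use, the median was 0.35 and 0.46 after 300–350 nm and 0.25 and 1.15 after 450–500 nm. After FL it was 0.45 and 0.09, where the median of all transcripts was itself below 0, at −0.08 and −0.30.

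**Figure D1:**
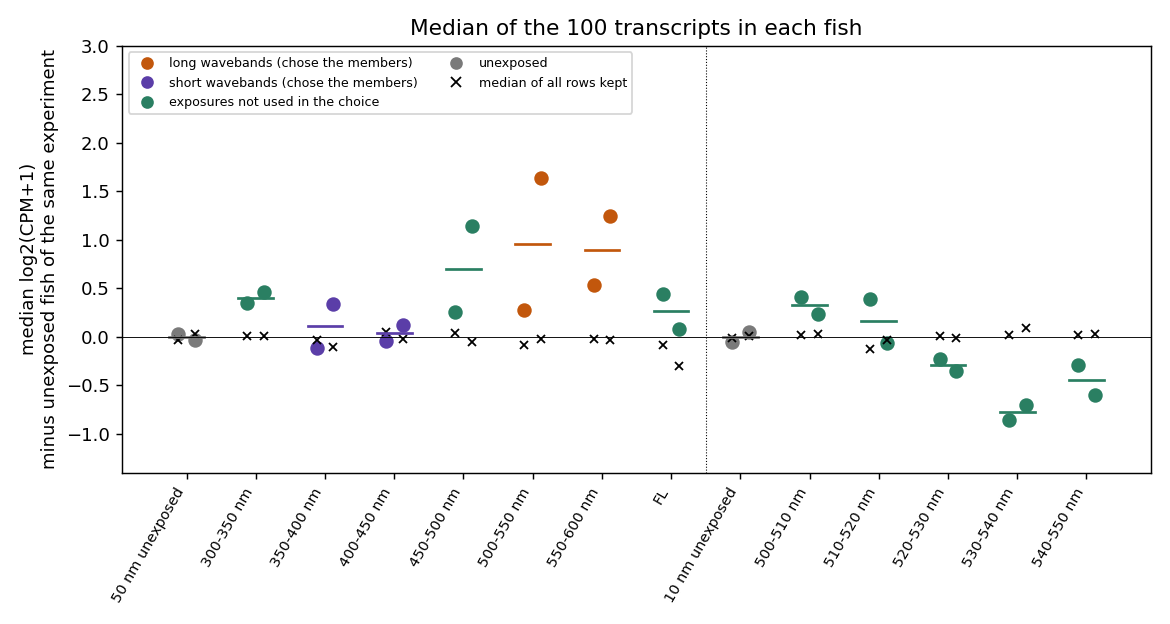
Median of log2(CPM + 1) over the 100 transcripts, less the mean of the unexposed fish of the same experiment, for each of the 28 fish (points, bars give the mean of the 2 fish, crosses the median of all 14297 transcripts). The 500–550 nm fish sit at 0.28 and 1.64, and both fish of 520–530, 530–540 and 540–550 nm lie below 0.

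Sets of members that varied together over the 20 libraries not used in the choice were formed (average linkage of Pearson correlations, centered within each experiment, divided at r = 0.5), and 5 groups of at least 5 members held 79 of the 100. They had 26, 20, 14, 10 and 9 members. The mean pairwise correlation was 0.80, 0.63, 0.68, 0.74 and 0.69 within them, over 20 libraries that share their fish, compared with 0.16 among all members and 0.07 among all transcripts kept. High values within the groups follow from forming them on correlations in these same libraries. They describe the groups and are no support for them. The groups differ in which fish were high and in how the members came to have a difference between long and short wavelengths.

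**Figure D2:**
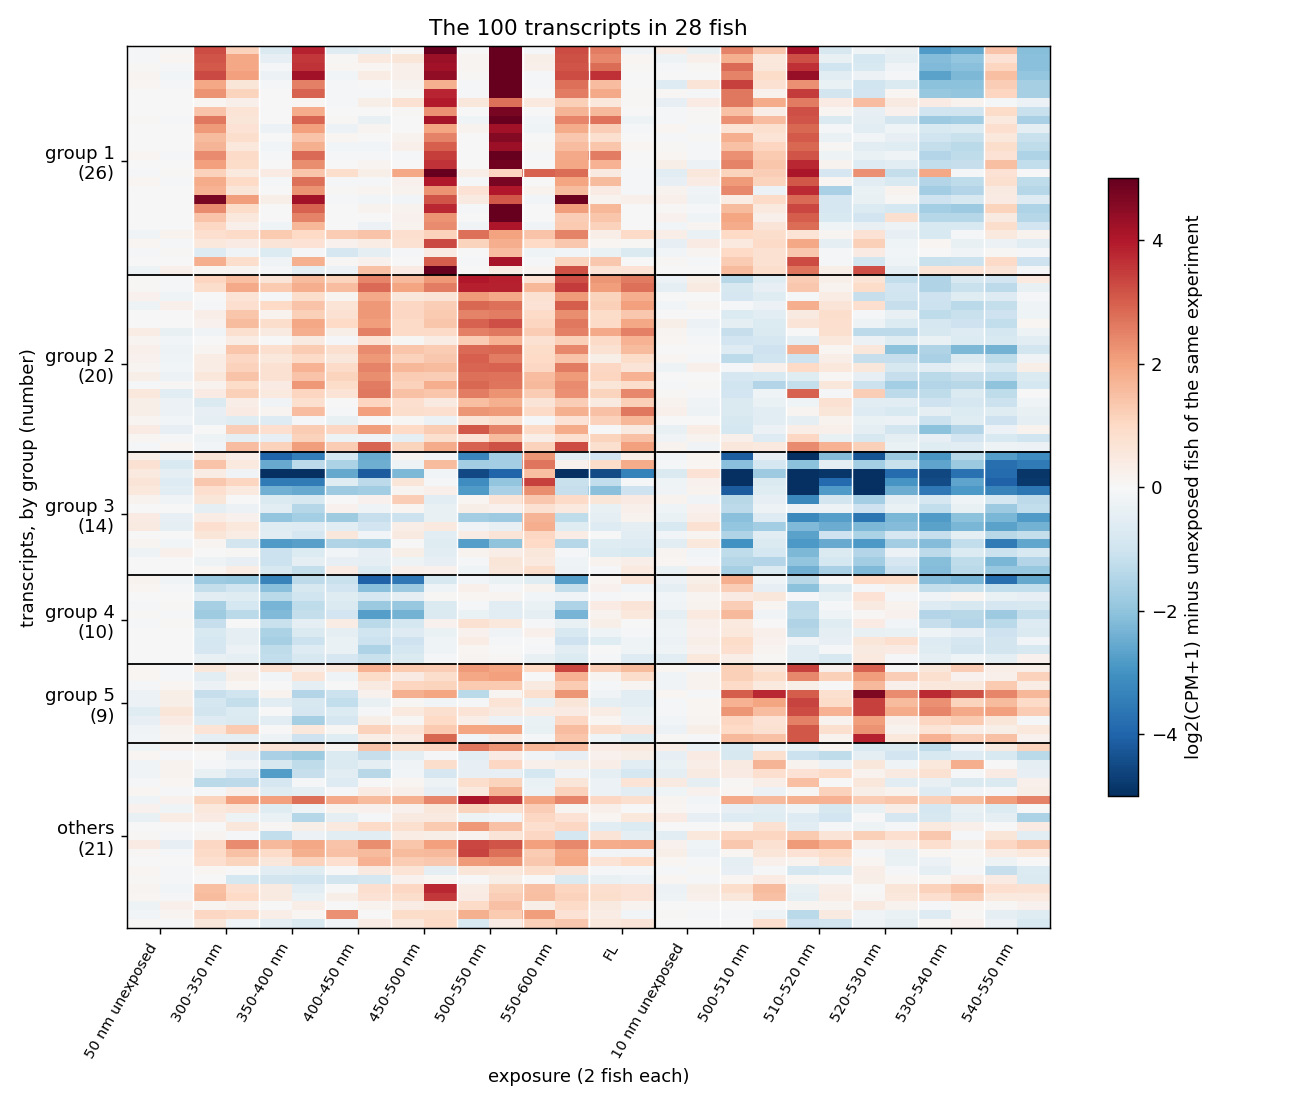
Each of the 100 transcripts (lines, ordered by group and rank) in each of the 28 fish (columns, 2 for each exposure), colored by log2(CPM + 1) less the mean of the unexposed fish of the same experiment, with colors ending at 5 in both directions. Group 1 is red in single fish of several exposures, group 2 in both 500–550 nm fish, group 3 is blue in most exposed fish, and group 5 is red in the 10 nm wavebands.

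The first group, with 26 members, was high in 1 fish and near its unexposed level in the other after 350–400, 450–500, 500–550 and 550–600 nm and after FL, but not in every exposure. Its leading transcript, ENSXMAT00000002888 at rank 1, was at 1.47 and 1.63 CPM in the unexposed fish of the 50 nm experiment. It was at 1.55 CPM in fish 1 and 269 CPM in fish 2 of 500–550 nm, and at 1.37 and 23.5 CPM after 550–600 nm. The same held for a short waveband, with 0.560 and 35.7 CPM after 350–400 nm, whereas both fish of 400–450 nm were low, at 0.689 and 0.794 CPM. Of the libraries not used in the choice, it was at 23.3 and 4.69 CPM after 300–350 nm, 1.48 and 78.9 CPM after 450–500 nm and 13.9 and 1.25 CPM after FL. One fish of each of these exposures was therefore at least several times higher than the other.

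The same transcript in the 10 nm experiment was at 14.1 and 7.84 CPM in the unexposed fish. Levels were 63.7 and 28.4 CPM after 500–510 nm, 200 and 5.62 CPM after 510–520 nm, and 8.90 and 7.95 CPM after 520–530 nm. They were 0.613 and 0.933 CPM after 530–540 nm, and 30.3 and 1.65 CPM after 540–550 nm. Both 500–510 nm fish lay above both unexposed fish and both 530–540 nm fish lay below them, and in the 510–520 and 540–550 nm pairs 1 fish lay above and 1 below.

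As a median, the first group showed the same split between fish, although its members did not all follow this transcript. Of the 26, 19 were at least 1 higher (log2) after 500–550 than after 550–600 nm and 2 were at least 1 higher after 550–600 nm. The group median was 0.30 and 0.19 CPM in the unexposed fish of the 50 nm experiment, 0.27 and 30.2 CPM after 500–550 nm and 0.25 and 4.84 CPM after 550–600 nm. After 300–350 nm the median was raised in both fish (3.49 and 1.11 CPM), and after 400–450 nm it was low in both (0.19 and 0.15 CPM). In the 10 nm experiment it was 2.15 and 2.66 CPM in unexposed fish, higher in both fish of 500–510 nm (11.4 and 5.17 CPM) and lower in both fish of 530–540 nm (0.31 and 0.54 CPM). After 450–500 nm 1 member was at least 1 higher (log2) than unexposed in fish 1 and 25 of the 26 in fish 2, and after 500–550 nm the counts were 2 and 25. When fish 2 of 500–550 nm was left out of the choice, 3 of the 26 members stayed among the first 100 transcripts. With fish 2 of 400–450 nm left out 15 stayed, with fish 1 of 400–450 nm 17, with fish 2 of 550–600 nm 21, and with any of the other 4 libraries 25. None of the 26 was kept under all 8 omissions.

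Where single fish stand apart, other cells in a skin sample may move with them, and in whole skin fewer cells of a type and less RNA per cell cannot be told apart. The listed markers of other cell types whose values are given here are MYL2B (a myosin light chain of muscle) and LCP2A (an adaptor of immune cell signaling). In the 500–550 nm pair, where the first group differed most, MYL2B was at 116 CPM in fish 1 and 90.0 CPM in fish 2, and LCP2A at 45.8 and 45.6 CPM. In the 510–520 nm pair, where fish 1 was the high one, MYL2B was at 52.8 and 95.9 CPM, and LCP2A at 26.3 and 55.1 CPM. MYL2B was lower in the high fish of these 2 pairs and of the 550–600 nm pair (119 CPM in fish 1 and 50.9 CPM in fish 2). The same held for the high fish 1 of FL (40.3 and 150 CPM) and of 540–550 nm (42.7 and 117 CPM). It was higher in the high fish 2 of 350–400 nm (73.1 and 78.2 CPM) and of 450–500 nm (49.7 and 56.9 CPM). Where both fish were raised, the higher fish 1 had less MYL2B after 300–350 nm (45.1 and 83.0 CPM). After 500–510 nm the higher fish 1 had more (84.25 and 78.7 CPM). LCP2A in fish 1 and fish 2 was at 50.1 and 52.1 CPM after 350–400 nm and 48.0 and 40.7 CPM after 450–500 nm. It was at 47.8 and 44.15 CPM after 550–600 nm, 78.8 and 72.0 CPM after FL, and 46.95 and 49.3 CPM after 540–550 nm. The 16 muscle and 8 immune markers rest here on 1 named row each, and their part in the pattern was not tested. Among the cell cycle markers, KPNA2 (24.2 and 70.6 CPM) and CDC47 (19.6 and 56.95 CPM) were higher in the high fish 2 of 500–550 nm. SPC25 was lower in it (1.75 and 0.982 CPM). In the 510–520 nm pair the high fish 1 had less KPNA2 (37.8 and 82.7 CPM) and CDC47 (14.9 and 38.9 CPM). The part of the cell cycle markers was not tested either.

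**Figure D3:**
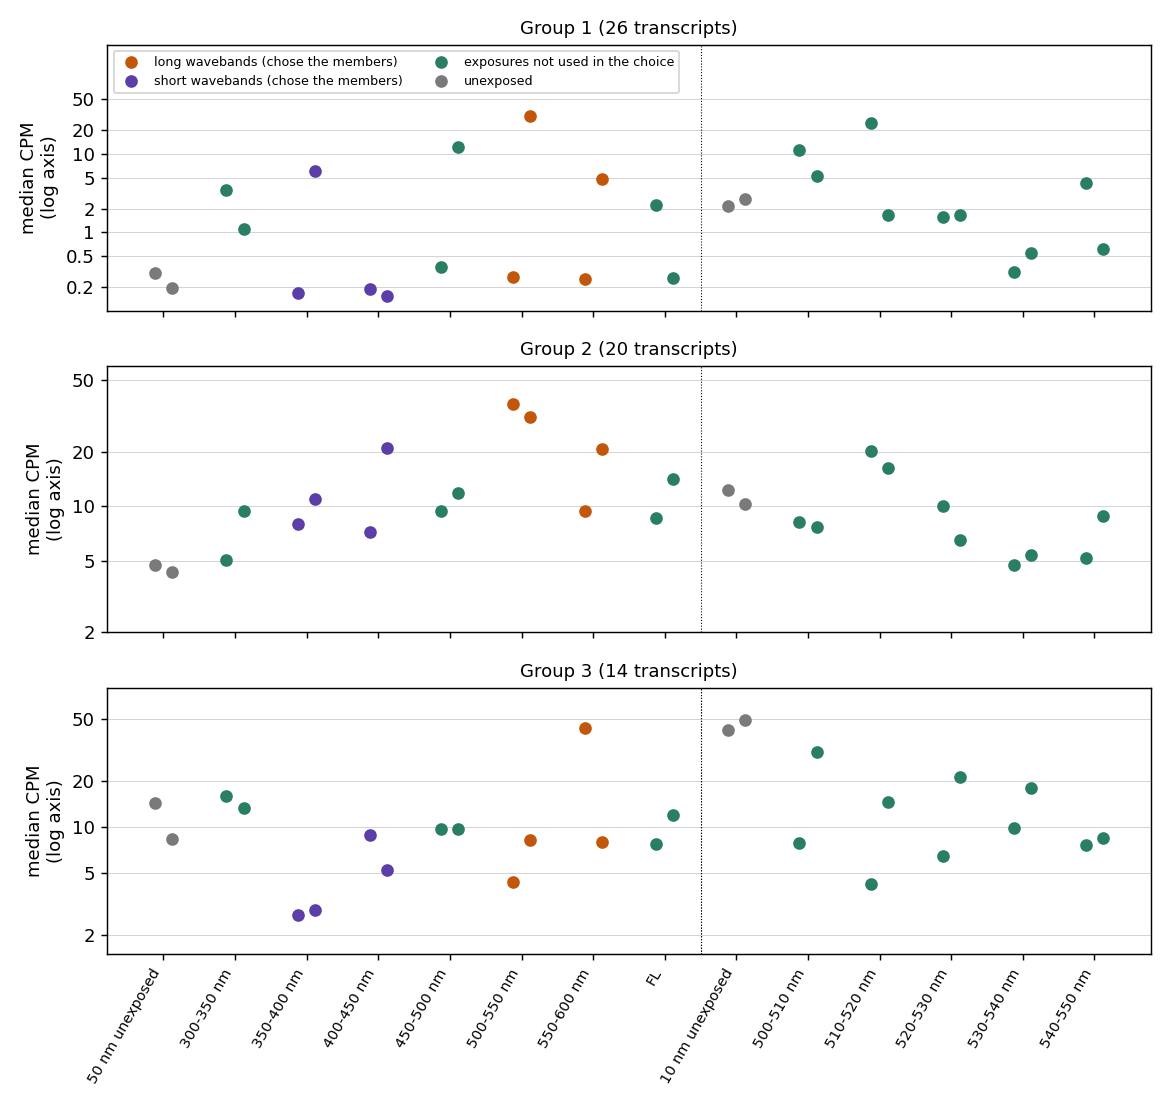
Median CPM (log axis) over the members of the first 3 groups in each of the 28 fish, by exposure. In group 1 fish of the same exposure differ from 0.27 to 30.2 CPM (500–550 nm), in group 2 both 500–550 nm fish are highest, and in group 3 the 2 unexposed fish of the 10 nm experiment and 1 fish of 550–600 nm are highest.

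The second group, with 20 members, was high in both fish of 500–550 nm rather than in 1, and it holds KLHL38 and PKFB1. Its median was 4.73 and 4.30 CPM in the unexposed fish, 37.1 and 31.4 CPM after 500–550 nm, and 9.46 and 20.8 CPM after 550–600 nm. Both short wavebands also lay above the unexposed fish, at 7.93 and 11.0 CPM after 350–400 nm and 7.20 and 21.2 CPM after 400–450 nm. Of its 20 members, 18 and 19 were at least 1 higher (log2) than unexposed in the 2 fish of 500–550 nm, and 6 were kept among the first 100 under all 8 omissions. In the 10 nm experiment its median, less unexposed (log2(CPM + 1)), was above 0 in both fish only after 510–520 nm (0.40 and 0.46). It was −0.82 and −0.58 after 500–510 nm and −0.32 and −0.93 after 520–530 nm. After 530–540 nm it was −1.07 and −0.81, and after 540–550 nm −1.05 and −0.25. The unexposed fish there were higher than those of the 50 nm experiment (median difference 1.26).

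KLHL38 was at 0.346 and 0.215 CPM in the unexposed fish of the 50 nm experiment. It was at 19.7 and 17.7 CPM after 500–550 nm, 1.12 and 10.9 CPM after 550–600 nm, 1.01 and 2.81 CPM after 350–400 nm and 1.75 and 5.92 CPM after 400–450 nm. All 8 of these fish lay above both unexposed fish, and fish 1 of 550–600 nm lay within the range of the short wavebands. Of the exposures not used in the choice, it was at 1.71 and 2.61 CPM after 300–350 nm, 2.97 and 4.69 CPM after 450–500 nm and 4.96 and 6.79 CPM after FL. In edgeR's quasi-likelihood test, with p-values adjusted over all transcripts tested, KLHL38 was higher after 450–500 nm than in unexposed fish by 3.76 on the log2 scale (SE 0.47, adjusted p = 0.0294). Over 9 alternative settings this adjusted p ran from 3.91e-07 to 0.209, and the call was lost when either unexposed library was left out (adjusted p = 0.122 and 0.209), with the replicate block (0.0542) and in 1 fit of all 14 libraries (0.0636). The log2 differences after 300–350 nm (2.91, SE 0.49, adjusted p = 0.0700) and after FL (4.59, SE 0.47, adjusted p = 0.116) did not pass.

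In the 10 nm experiment the unexposed fish themselves had 2.83 and 4.79 CPM of KLHL38. The exposed fish were at 0.807 and 2.08 CPM after 500–510 nm, 10.2 and 4.79 CPM after 510–520 nm, 6.51 and 1.01 CPM after 520–530 nm, 0.681 and 1.72 CPM after 530–540 nm, and 1.42 and 5.52 CPM after 540–550 nm. Both fish of 500–510 and of 530–540 nm lay below both unexposed fish, and no 10 nm waveband passed the test for KLHL38. None of these 10 fish reached the 17.7 CPM of the lower fish of the 500–550 nm waveband.

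PKFB1 varied less. It was at 4.41 and 2.62 CPM in the unexposed fish of the 50 nm experiment, 11.6 and 14.2 CPM after 500–550 nm, 5.93 and 9.32 CPM after 550–600 nm, 2.97 and 6.80 CPM after 350–400 nm and 3.44 and 8.24 CPM after 400–450 nm. After 450–500 nm its levels were 6.89 and 5.09 CPM, above both unexposed fish, but the difference did not pass the test (log2 difference 0.77, SE 0.47, adjusted p = 0.326). In the 10 nm experiment PKFB1 was at 6.56 and 4.79 CPM in unexposed fish and at 2.25 and 2.73 CPM after 530–540 nm, and it passed the test in no comparison.

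ENSXMAT00000020266, which the probe list places among the housekeeping transcripts, was higher in every exposed fish than in the unexposed fish of its experiment. It was at 1.64 and 2.54 CPM in unexposed fish of the 50 nm experiment, and at 51.5 and 33.1 CPM after 500–550 nm, 11.3 and 15.8 CPM after 550–600 nm, 11.7 and 19.7 CPM after 350–400 nm and 10.5 and 8.12 CPM after 400–450 nm. The 2 fish of 550–600 nm overlapped the range of the 350–400 nm fish, and both 500–550 nm fish lay above all other fish. It was at 5.69 and 11.7 CPM after 300–350 nm, 9.50 and 15.4 CPM after 450–500 nm, and 5.30 and 4.26 CPM after FL. After 450–500 nm the log2 difference was 2.60 (SE 0.44, adjusted p = 0.0389).

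In the 10 nm experiment ENSXMAT00000020266 was at 3.02 and 2.36 CPM in unexposed fish. It was at 12.6 and 10.4 CPM after 500–510 nm, 11.6 and 11.2 CPM after 510–520 nm, 7.78 and 8.49 CPM after 520–530 nm, 7.36 and 10.0 CPM after 530–540 nm, and 14.8 and 19.5 CPM after 540–550 nm. Over the 5 wavebands together the log2 difference was 2.03 (SE 0.21, adjusted p = 0.0239), and after 540–550 nm alone it was 2.65 (SE 0.25, adjusted p = 0.0260), the only transcript of 16366 called in that waveband. All 10 exposed fish lay above both unexposed fish. Over the alternatives the log2 difference stayed between 1.84 and 2.21 for the 5 wavebands together, between 2.46 and 2.85 for 540–550 nm and between 2.16 and 2.94 for 450–500 nm. The adjusted p was less stable, from 4.47e-14 to 0.496, from 1.49e-16 to 0.674 and from 2.39e-06 to 0.218. The call after 540–550 nm was lost when any of its 4 libraries was left out. The call after 450–500 nm was lost without either unexposed library or without fish 2 of 450–500 nm (adjusted p = 0.186, 0.218 and 0.0720), and the call over the 5 wavebands without either unexposed library, fish 1 of 500–510 nm, fish 1 of 520–530 nm or any fish of 530–540 and 540–550 nm (adjusted p from 0.0699 to 0.496).

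**Figure D4:**
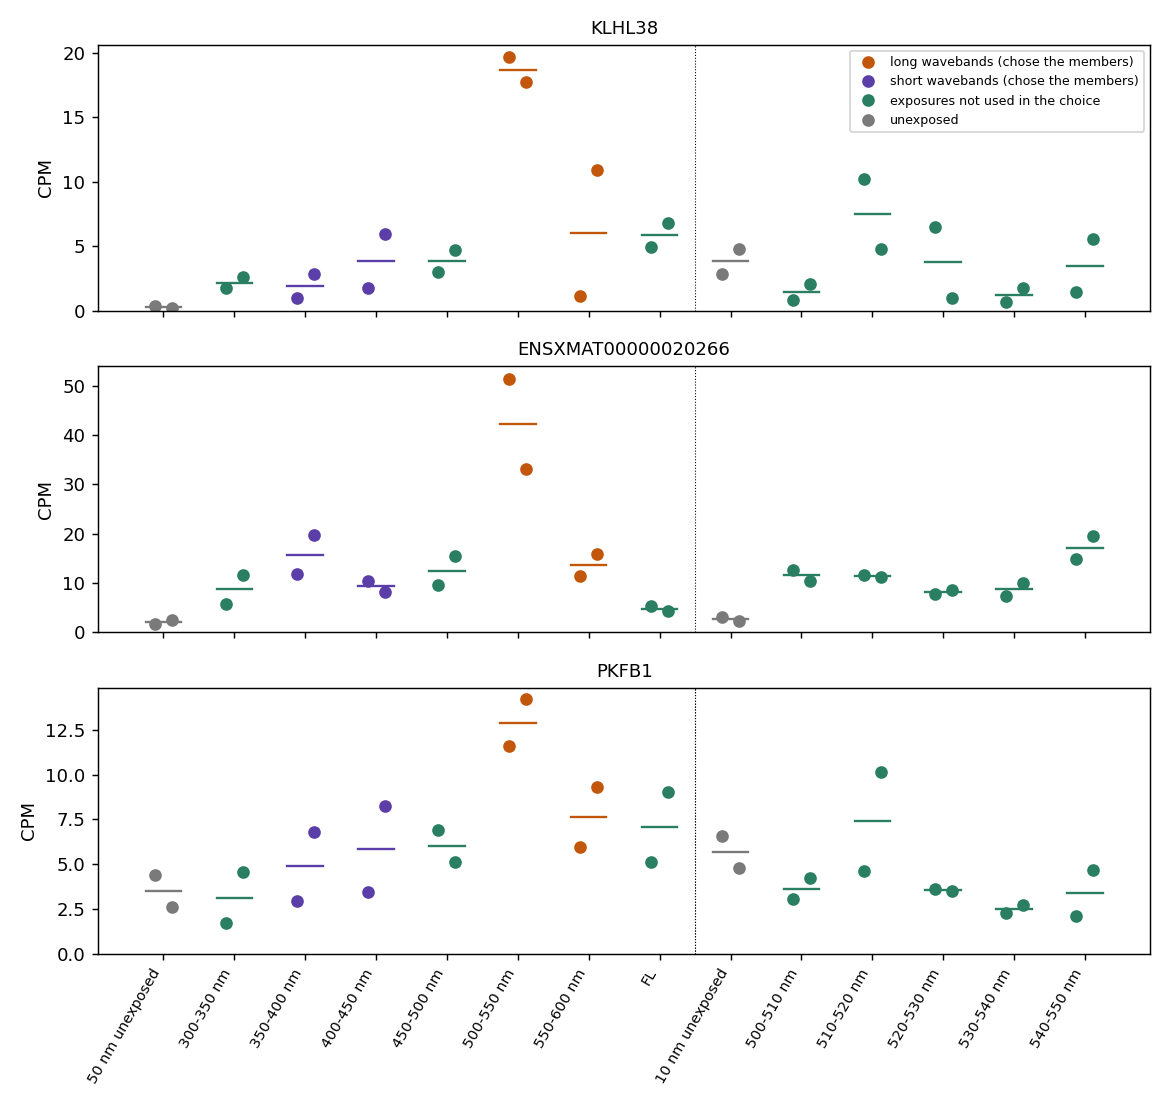
CPM of the 3 named members in each of the 28 fish (points, bars give the mean of the 2 fish of an exposure). KLHL38 is at 19.7 and 17.7 CPM after 500–550 nm, ENSXMAT00000020266 is above its unexposed fish in every exposure, and PKFB1 is highest at 14.2 CPM after 500–550 nm.

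The third group, with 14 members, was lower after most exposures than in unexposed fish, and 1 fish of 550–600 nm was high. Less unexposed (log2(CPM + 1)), its median was above 0 in both fish of 300–350 nm, at 0.48 and 0.28. After 450–500 nm this difference was 0.13 and −0.26. As CPM, the median of the group was 14.4 and 8.30 in unexposed fish of the 50 nm experiment, 2.69 and 2.91 after 350–400 nm and 8.80 and 5.22 after 400–450 nm. It was also low after 500–550 nm, a long waveband, at 4.38 and 8.17 CPM, and it was 43.9 and 7.97 CPM in the 2 fish of 550–600 nm. Without fish 1 of 550–600 nm, 3 of the 14 stayed among the first 100 transcripts.

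ENSXMAT00000006292 at rank 2 led the third group. It was at 37.7 and 23.5 CPM in unexposed fish, 0.897 and 1.83 CPM after 350–400 nm, 15.9 and 4.40 CPM after 400–450 nm, 2.16 and 8.32 CPM after 500–550 nm and 139 and 20.5 CPM after 550–600 nm. Both 500–550 nm fish lay below both unexposed fish, although the transcript was chosen for a high level after long wavelengths. It was at 45.5 and 37.6 CPM after 300–350 nm, 32.9 and 26.9 CPM after 450–500 nm and 14.9 and 37.8 CPM after FL. In the 10 nm experiment its 2 unexposed fish held 161 and 210 CPM, and the 10 exposed fish held 3.01 to 138 CPM, all below both unexposed fish (log2 difference over the 5 wavebands −2.44, SE 0.83, adjusted p = 0.123).

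The fourth group (10 members) was near its unexposed level after 500–550 nm and lower after short wavelengths. Its median was 22.1 and 21.0 CPM in unexposed fish, 27.9 and 22.0 CPM after 500–550 nm and 21.4 and 10.8 CPM after 550–600 nm, against 6.50 and 12.1 CPM after 350–400 nm and 15.5 and 6.93 CPM after 400–450 nm. It was also lower after 300–350 nm, at 12.1 and 13.1 CPM, and near unexposed after FL, at 20.3 and 23.2 CPM. Less unexposed (log2(CPM + 1)), the median was −0.97 and −0.22 after 450–500 nm, so lower levels were not limited to short wavelengths. In the 10 nm experiment this difference was −1.28 and −0.36 after 510–520 nm, −0.65 and −0.89 after 530–540 nm, and −0.97 and −0.75 after 540–550 nm. It was above 0 after 500–510 nm (0.86 and 0.10) and 520–530 nm (0.46 and 0.18).

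The fifth group (9 members) was higher in every fish of the 10 nm wavebands than in their unexposed fish. Its median was 2.83 and 3.74 CPM in these unexposed fish and 6.80 to 40.7 CPM in the 10 exposed fish, the highest values being 35.6 CPM in fish 1 of 510–520 nm and 40.7 CPM in fish 1 of 520–530 nm. In the 50 nm experiment it was at 8.38 and 7.91 CPM in unexposed fish, 11.3 and 17.7 CPM after 500–550 nm, 8.37 and 24.2 CPM after 550–600 nm and 11.9 and 16.6 CPM after 450–500 nm. In the fifth group 3 members were called higher after 450–500 nm, beside 0.607% of all transcripts tested. Over the 10 nm wavebands together 0 were called higher, beside 0.0122% of all, and the median log2 difference of the 9 was 1.86.

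The waveband of 450–500 nm lies between the short and the long wavebands of the choice. Its fish took no part in the ranking, only in the mean of at least 2 CPM. Of the 100 members 11 were called higher and 0 lower than in unexposed fish (adjusted p under 0.05 and log2 difference at least 1 in size), while 0.607% of 16477 transcripts were called higher and 1.41% lower. Of the 11, 4 belonged to the second group, 3 to the fifth, and 3 to a smaller group of 4 that includes ENSXMAT00000020266. The 11 log2 differences ranged from 1.08 (rank 14) to 3.76 (KLHL38). The median of the 100 was 1.11, against 0.01 over all transcripts tested, and 77 were positive, against 51.1% of all. In 57 members both exposed fish lay above both unexposed fish, against 28.7% of all transcripts kept. None of the 26 members of the first group was called, although their median log2 difference was 5.23. The 2 exposed fish differed in this group as described above. Most of these members were under 1 CPM in the unexposed fish, so a mean of 2 CPM was reached through other fish. Fish 2 of 450–500 nm was among the high ones (group median 3.37 above unexposed in log2(CPM + 1), and 0.18 in fish 1). For this group a level above unexposed thus follows partly from the choice. Values over the 100 members include this group, here and in other comparisons with these unexposed fish, and are a description only.

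The number called rested on single libraries. It was 0 without either unexposed library, 41 without fish 1 of 450–500 nm and 7 without fish 2 (4 higher and 3 lower). DESeq2 called 41 higher and 0 lower. For DESeq2 and for fits without a library, here and below, the share of all transcripts called is not given. Whether the members exceed that share is therefore not shown. At rank 1, ENSXMAT00000002888 had a log2 difference of 4.74 (SE 1.66, adjusted p = 0.129), which became 5.73 (adjusted p = 0.0165) without fish 1 and −0.089 (adjusted p = 0.971) without fish 2.

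After 300–350 nm, the 50 nm waveband with the lowest dose, edgeR called 0 members in either direction, beside 0.0607% of 16477 transcripts called higher and 0.0607% lower. The median log2 difference of the members was 0.50, and 70 were positive, against 50.6% of all transcripts. An unadjusted p under 0.05 was found for 36, compared with 20.6% of all transcripts. DESeq2 called 12 higher and 4 lower. The direct comparison of 450–500 with 300–350 nm, which needs no unexposed fish, also called 0 members, as it called 0% of all transcripts. In it 83 members were higher after the longer waveband, with a median log2 difference of 0.56 against −0.01 over all transcripts, and 34 had both 450–500 nm fish above both 300–350 nm fish, against 16.8% of all transcripts kept. Of the members 18 had an unadjusted p under 0.05, against 9.89% of all transcripts, and DESeq2 called 7 higher and 0 lower. Without fish 1 of 450–500 nm edgeR called 10.

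After FL, whose spectrum is broad, 87 of the 100 members passed the filter on low counts and 0 were called, as were 0% of 16513 transcripts. The median log2 difference of the 87 was 0.62, against −0.02 over all transcripts, and 38 had an unadjusted p under 0.05, against 16.8%. In 42 members both FL fish lay above both unexposed fish and in 16 below, against 15.5% and 43.4% of all transcripts kept. Of the first group 13 of 26 passed the filter, and the median log2 difference of the second group, 1.98 over its 20 members, was above that of the other 4 groups. DESeq2 called 22 higher and 1 lower, and edgeR called 33 higher and 1 lower without fish 1 of FL and 29 higher and 2 lower without fish 2. The comparisons of 450–500 nm, 300–350 nm and FL with unexposed fish all use the same 2 unexposed libraries.

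**Figure D5:**
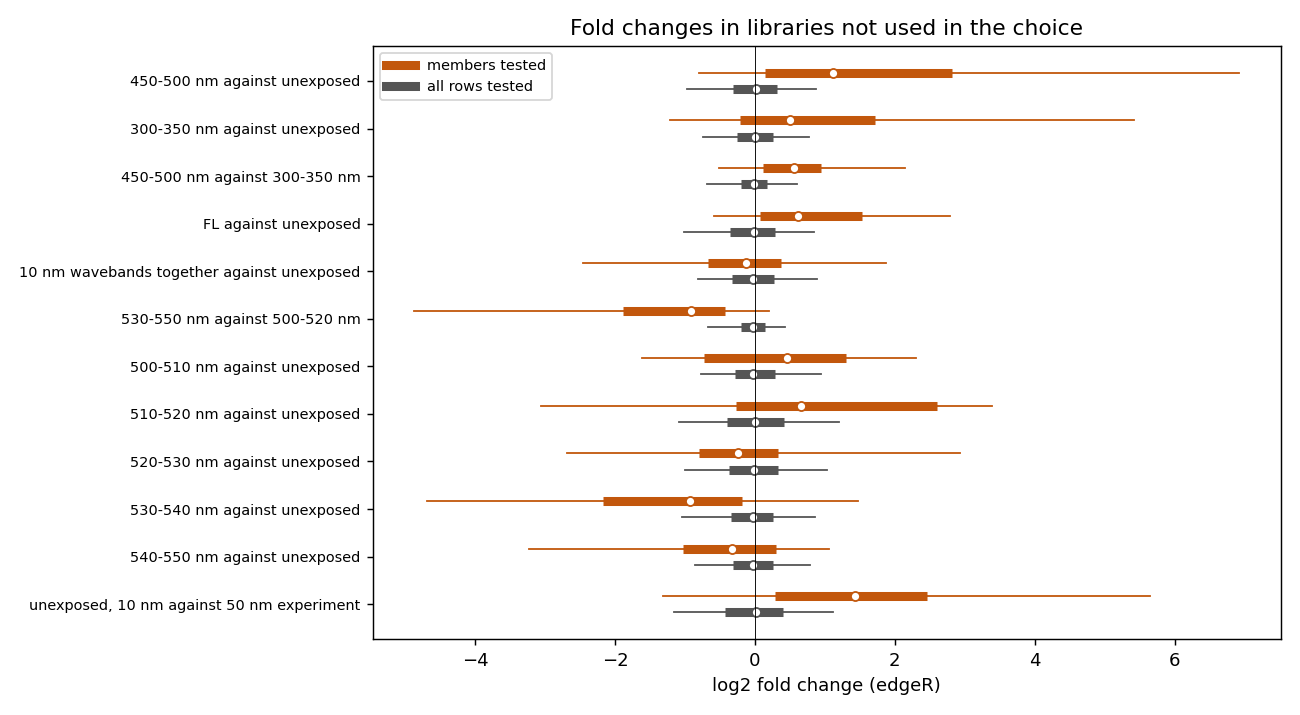
Log2 fold changes from edgeR for the members tested and all transcripts tested in 12 comparisons of libraries not used in the choice (circle, median; thick line, middle 50%; thin line, 5% to 95%). The member median is 1.11 for 450–500 nm, −0.91 for 530–550 against 500–520 nm and 1.43 between the unexposed fish of the 2 experiments.

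The 5 wavebands of 10 nm divide the range of 500–550 nm, in which the members were highest in the choice, and were tested in other fish. Together they gave 1 member called higher (ENSXMAT00000020266) and 1 called lower, beside 0.0122% of 16366 transcripts in each direction. The member called lower, ENSXMAT00000003757 at rank 70, was at 4.37 and 14.2 CPM in unexposed fish and at 0.409 to 1.68 CPM in the 10 exposed fish, with no overlap (log2 difference −3.46, SE 0.35, adjusted p = 0.0239). It was named after its values were seen. Its log2 difference was −2.38 (adjusted p = 0.496) without unexposed fish 2, and the call was also lost, at adjusted p of 0.0699 to 0.125, without fish 1 of 500–510 nm, fish 1 of 520–530 nm or any fish of 530–540 and 540–550 nm. The median log2 difference of the 100 was −0.13, against −0.03 over all transcripts. Of the members 46 were positive, against 46.7% of all transcripts, and 33 had an unadjusted p under 0.05, against 26.8%. In 7 members all 10 exposed fish lay above both unexposed fish and in 14 below, against 15.2% and 10.1% of all transcripts kept. DESeq2 called 6 higher and 10 lower. Leaving out fish 2 of 510–520 nm gave 7 higher and 16 lower, leaving out fish 2 of 520–530 nm gave 3 and 9, leaving out unexposed fish 1 gave 0 and 1, and 0 were called without unexposed fish 2, fish 1 of 500–510 nm, fish 1 of 520–530 nm or any of the 4 fish of 530–540 and 540–550 nm.

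Taken singly, the 10 nm wavebands differed in the direction of the median. The median log2 difference of the members from unexposed fish was above 0 for the 500–510 nm fish (0.46) and the 510–520 nm fish (0.66). It was below 0 in the longer wavebands, at −0.23 in the 520–530 nm fish, −0.93 in the 530–540 nm fish and −0.32 in the 540–550 nm fish. The 2 fish of 510–520 nm differed, however, with medians of log2(CPM + 1) less unexposed of 0.40 in fish 1 and −0.06 in fish 2, so 1 of them lay slightly below its unexposed level. Among the 100 members 60, 64, 42, 22 and 34 were positive, against 47.8%, 50.8%, 48.7%, 47.1% and 47.1% of all transcripts tested. edgeR called 0 in the first 4 of these wavebands, as it did of all transcripts (0%), and 1 (ENSXMAT00000020266) after 540–550 nm, beside 0.00611% of all. The paper reports modulated genes in each of these wavebands and after FL, from edgeR at these thresholds. It does not name the type of test, so the counts of 0 hold for the quasi-likelihood test used here. An unadjusted p under 0.05 was found for 22, 45, 27, 35 and 30 members, against 14.2%, 28.7%, 22%, 15.6% and 13.1% of all transcripts tested. DESeq2 called 6 higher and 0 lower after 500–510 nm, 13 and 7 after 510–520 nm, 5 and 7 after 520–530 nm, 4 and 10 after 530–540 nm and 3 and 7 after 540–550 nm. Without fish 2 of 510–520 nm, edgeR called 37 higher and 17 lower in that waveband.

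In the direct comparison of 530–550 with 500–520 nm, 90 of the 100 members were lower after the longer wavelengths, with a median log2 difference of −0.91 against −0.02 over all transcripts. None was called by edgeR, nor was any of 16366 transcripts (0%), while 55 members had an unadjusted p under 0.05, against 11.1% of all transcripts. In 5 members all 4 fish of the longer wavebands lay below all 4 of the shorter ones, and in 0 the converse, against 1.25% and 6.51% of all transcripts kept. DESeq2 called 0 higher and 27 lower. edgeR called 17 lower without fish 2 of 510–520 nm and 1 lower without fish 2 of 500–510 nm. The medians of all 5 groups were below 0, from −4.16 in the first group to −0.42 in the third.

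The unexposed fish of the 2 experiments differed in these transcripts, a comparison chosen after the data were seen. Of the 100 members 60 were called higher and 6 lower in the unexposed fish of the 10 nm experiment than in those of the 50 nm experiment, with 5.94% of 16545 transcripts called higher and 6.65% lower. The median log2 difference of the members was 1.43 against 0.01 over all transcripts, and in 70 members both fish of the 10 nm experiment lay above both of the other, against 30.4% of all transcripts kept. An unadjusted p under 0.05 was found for 78 members and for 49% of all transcripts. By group, 23 of 26 members of the first were called higher, 16 of 20 of the second and all 14 of the third. In the fourth 2 of 10 were called lower and in the fifth 1 of 9 was called higher and 3 lower. KLHL38 was higher by 3.87 (SE 0.42, adjusted p = 0.00120), while ENSXMAT00000020266 (0.46, SE 0.30, adjusted p = 0.262) did not pass. Experiment and any condition that differed between these fish cannot be told apart, and values of the 10 nm wavebands less their own unexposed fish therefore start from another level than those of the 50 nm wavebands. As levels, the median of the 100 was 6.59 and 5.68 CPM in the unexposed fish of the 50 nm experiment and 10.3 and 10.7 CPM in those of the 10 nm experiment, with 10.3 and 20.9 CPM after 500–550 nm and 5.93 to 18.1 CPM over the 10 fish of the 10 nm wavebands.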

How the data were processed

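Total RNA of skin was sequenced as mRNA libraries in paired-end reads. The authors trimmed the reads, mapped them with GSNAP (version not given in the sources used here) to Ensembl cDNA, quantified them with xEpress and deposited the raw count of reads per transcript, not normalized. How xEpress was set to assign reads matching more than 1 transcript is not given in the sources used here, which leaves transcripts with a near-identical copy uncertain. Groups, doses and fish numbers came from the labels. The members and lists were chosen with earlier results of these data known.

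CPM were computed from column totals. Comparisons were fitted on counts with edgeR 4.0.16 (R 4.3.3): filterByExpr, TMM, quasi-likelihood test, Benjamini-Hochberg adjustment over all transcripts tested, called at adjusted p under 0.05 and log2 fold change of at least 1. Fits were of the unexposed, 300–350 and 450–500 nm libraries (6), FL with the distinct unexposed libraries (4), and the 10 nm experiment (12). SE is the log2 fold change divided by the root of the F statistic. Nothing in the labels says how the 2 fish of an exposure were handled, so p-values measure only the spread between these libraries. Alternatives were DESeq2 1.42.0, RLE scaling, no filter on low counts, the replicate number as a block, 1 fit of all 14 libraries of the 50 nm experiment, each library left out, and, for the choice of members, another pseudocount, level and scaling. The comparison of unexposed fish and other divisions of the tree were added after seeing the data. Named members are those with a gene name in the table or the study's tables and the 2 unnamed ones of highest rank. Sequences of these transcripts were not used here, and the sham-treated fish and the NanoString values were left out. Plots were made in matplotlib 3.10.9. One marker gene is not reported here.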

Additional observations from a re-analysis of the deposited data

Results flagged for a closer look

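Some values moved one way in both fish of 450–500 nm and the opposite way in both fish of a 10 nm waveband, each less the unexposed fish of its own experiment (log2(CPM + 1)). These differences were not tested, and the unexposed fish of the 2 experiments differ in these transcripts. The median of the 100 members was 0.70 (mean of 0.25 and 1.15) after 450–500 nm, against −0.29 after 520–530 nm, −0.78 after 530–540 nm and −0.44 after 540–550 nm. KLHL38 was 1.89 higher after 450–500 nm, against −0.997 after 500–510 nm and −1.14 after 530–540 nm. PKFB1 was 0.65 higher after 450–500 nm, against mean differences of −0.53 (500–510 nm), −0.54 (520–530 nm), −0.93 (530–540 nm) and −0.65 (540–550 nm).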

How the results depend on the processing

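With 2 fish for each exposure, the number of members called moved with the tool and with single libraries. The share of all transcripts called under these alternatives is not given, so whether the counts exceed it is not shown. In place of the edgeR counts, DESeq2 called 41 members after 450–500 nm, 16 after 300–350 nm, 7 for 450–500 against 300–350 nm, 23 after FL, 16 over the 10 nm wavebands together, 27 for 530–550 against 500–520 nm, and 6, 20, 12, 14 and 10 in the single 10 nm wavebands in order of wavelength. The fish numbers were not taken to pair the fish, which are different animals, since the labels do not state a pairing. The correlation of the differences between fish 1 and fish 2 was −0.29 to 0.13 in the 50 nm experiment. It was −0.28 for FL and −0.06 to 0.69 in the 10 nm experiment. Every negative value was a correlation with unexposed fish. Between exposed 10 nm wavebands the correlation was 0.007 to 0.69, highest for 510–520 with 520–530 nm. Whether fish of the same number share a condition was not tested. With the replicate block, 2 members were called after 450–500 nm, 19 over the 10 nm wavebands together, 18 after 510–520 nm and 2 after 540–550 nm. After 300–350 nm, no filter on low counts gave 2 and 1 fit of all 14 libraries gave 1. Leaving out each library in turn gave 0 to 41 members after 450–500 nm, 0 to 0 after 300–350 nm, 0 to 10 for 450–500 against 300–350 nm, 0 to 34 after FL, 0 to 23 over the 10 nm wavebands, 0 to 17 for 530–550 against 500–520 nm, 0 to 54 after 510–520 nm and 0 to 0 after 540–550 nm. For the unexposed fish of the 2 experiments, 51 to 64 were called in place of 66, and with DESeq2 64. The log2 difference of ENSXMAT00000002888 after 450–500 nm reversed to −0.089 without fish 2 and was 5.73 without fish 1. The causes were not tested, except that fits without a library hold fewer fish.

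The choice of the members itself kept 91 of the 100 with log2(CPM + 0.5), 76 with a mean of at least 5 CPM, 93 with at least 0.5 CPM and all 100 with TMM scaling, and 64 to 80 with 1 of its 8 libraries left out, so 19 members stayed under all 8 omissions. Dividing the tree at r = 0.4 or 0.6 in place of 0.5 put 87 or 72 members into groups of at least 5, and the first group kept 26 or 25 members together. Many members are low (43 have a mean under 10 CPM), and in unexposed fish of the 50 nm experiment most of the first group are under 1 CPM, so their fold changes there are imprecise.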
